A study of Mus musculus with 8 samples.

Results

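The SOX family of transcription factors was examined in RNA-seq of GFP-expressing cells that had been isolated by flow cytometry from the amygdala of E16.5 mouse embryos. The genes described are 10 members of the SOX transcription factor family (Sox1, Sox2, Sox3, Sox4, Sox5, Sox8, Sox9, Sox10, Sox11 and Sox21), taken by symbol out of the 32543 genes in the deposited tables. They comprise 7 progenitor and glial members (Sox1, Sox2, Sox3, Sox8, Sox9, Sox10 and Sox21) and 3 neuronal members (Sox4, Sox5 and Sox11). The knockout group held 4 libraries from Tshz1 GFP/RA embryos and the control group 4 libraries from Tshz1 GFP/+ embryos. All 8 libraries therefore came from mice that carry the GFP allele of Tshz1, on an outbred background, and every cell was sorted for that reporter. Each library was made from tissue of several embryos of 1 genotype, so the spread given below is a spread between pools, which the labels do not tie to separate litters; p-values measure that spread only. The labels do not say what the RA allele lacks. Each knockout library shares its title prefix (NX, NY, QT or RM) with 1 control library, and the meaning of the prefix is not stated.

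SOX proteins bind DNA through an HMG box, and their subfamilies mark successive steps of neural development. SOXB1 factors (Sox1, Sox2 and Sox3) keep neural cells in a progenitor state, and the SOXB2 factor Sox21 counteracts them. SOXE factors (Sox8, Sox9 and Sox10) act in the formation of glia, with Sox9 in radial glia and astrocytes and Sox10 in the oligodendrocyte lineage. SOXC factors (Sox4 and Sox11) promote the maturation of newly born neurons, and the SOXD factor Sox5, which lacks an activation domain of its own, acts in young cortical projection neurons and in oligodendrocyte precursors. Intercalated cells are clusters of GABAergic neurons around the basolateral amygdala that are born in the dorsal lateral ganglionic eminence. The sorted pools held transcripts of their markers and of markers of other cell types, as given below.

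The libraries held between 6384499 and 13295631 expected counts in knockout pools and between 5785549 and 14535810 in control pools. Tshz1 stood at 79.1 ± 29.4 CPM in knockout and 381 ± 115 CPM in control libraries (SD, n = 4 per genotype), with no overlap between the genotypes (log2 fold change -2.27, SE 0.30, adjusted p = 0.0388 in edgeR). This call was lost in 11 of 23 alternative settings, among them those without knockout NY, QT or RM or without control NX, QT or RM, while its log2 fold change stayed between -2.55 and -2.11. Intercalated cell markers were present, with 8 genes summing to between 558 and 1139.7 TPM in knockout and between 974.8 and 1916 TPM in control libraries. Meis2 held most of this sum on average, at 578 ± 161 TPM in knockout and 771 ± 201 TPM in control libraries. The sum also includes Tshz1 itself, at 30.4 ± 18.8 TPM in knockout and 147 ± 62.8 TPM in control libraries. Markers of GABAergic neurons were abundant, with 7 genes summing to between 673 and 1182 TPM in knockout and between 847 and 1510 TPM in control libraries, and 7 pallial glutamatergic genes summed to between 146 and 404 TPM in knockout and between 32.2 and 250.3 TPM in control libraries. The control NX library stood apart: it had the lowest sum of all 8 libraries for the SOX partner, neural progenitor, oligodendrocyte, astrocyte, cell cycle, pallial, microglia and vascular lists. The same library had the highest sum of all 8 for the intercalated cell list (1916 TPM) and the pan-GABAergic list (1510 TPM). It also had the highest Tshz1 level (492 CPM). Fold changes of SOX genes that it moved by over 1.5 times are given with and without it. In bulk RNA from sorted pools, fewer cells of a type and less RNA per cell cannot be told apart.

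The starts of 7 of the 10 genes were found among the RefSeq promoter windows of build GRCm38.p6, which run from 250 bases before to 50 bases after a start; Sox3, Sox9 and Sox10 were not matched. The windows of 4 members are shown because the results turn on them: Sox11 had the highest level, Sox5 separated the genotypes, and Sox8 and Sox21 were lowest in the 2 libraries with the lowest progenitor marker sums. All are written 5′ to 3′ on the strand of the gene. Capitals mark the SOX core letters ACAAT or ACAAAG on either strand. The Sox5 window is chr6:143947057-143947356 (minus strand), the Sox8 window chr17:25570637-25570936 (minus), the Sox11 window chr12:27342669-27342968 (minus) and the Sox21 window chr14:118236981-118237280 (minus).
Sox5: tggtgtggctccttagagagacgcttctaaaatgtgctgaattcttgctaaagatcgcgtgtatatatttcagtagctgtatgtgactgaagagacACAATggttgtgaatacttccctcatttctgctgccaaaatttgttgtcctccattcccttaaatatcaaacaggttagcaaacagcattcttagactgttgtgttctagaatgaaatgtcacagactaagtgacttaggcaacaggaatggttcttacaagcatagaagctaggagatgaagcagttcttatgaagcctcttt
Sox8: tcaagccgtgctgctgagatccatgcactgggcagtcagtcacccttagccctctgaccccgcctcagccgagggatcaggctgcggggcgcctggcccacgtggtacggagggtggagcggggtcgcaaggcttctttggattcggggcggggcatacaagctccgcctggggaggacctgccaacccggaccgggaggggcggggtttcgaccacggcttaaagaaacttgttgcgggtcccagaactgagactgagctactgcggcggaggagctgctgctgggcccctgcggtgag
Sox11: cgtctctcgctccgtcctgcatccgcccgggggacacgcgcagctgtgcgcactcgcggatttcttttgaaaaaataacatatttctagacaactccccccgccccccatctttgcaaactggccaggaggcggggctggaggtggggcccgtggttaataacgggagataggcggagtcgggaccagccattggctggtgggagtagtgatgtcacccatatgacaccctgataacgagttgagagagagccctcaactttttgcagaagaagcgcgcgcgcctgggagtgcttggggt
Sox21: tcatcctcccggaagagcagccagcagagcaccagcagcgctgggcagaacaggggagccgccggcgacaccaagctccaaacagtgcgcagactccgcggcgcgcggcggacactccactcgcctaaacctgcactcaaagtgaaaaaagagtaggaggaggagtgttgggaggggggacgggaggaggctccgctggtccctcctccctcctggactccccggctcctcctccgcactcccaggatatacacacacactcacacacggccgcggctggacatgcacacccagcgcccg

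Of the 7 windows, those of Sox5 (1 ACAAT) and Sox2 (1 ACAAAG) held a SOX core, whereas ACAAT occurred in 31.0% and ACAAAG in 18.7% of all 32851 windows. A match or its absence describes these letters in this window only. The Sox5 window had a GC content of 39.7%, while 10.1% of all windows were at or below that value, and it lies inside the long Sox5 gene. The windows of Sox1 (70.7%), Sox2 (66.3%), Sox8 (66.3%), Sox11 (58.7%) and Sox21 (65.7%) lay above the median of 52.7% over all windows, and that of Sox4 (52.0%) just under it. The GC box letters GGGCGG, searched on both strands, occurred in the windows of Sox1, Sox2, Sox8 and Sox11 and in 35.7% of all windows. No SOX core in these windows overlapped a GC box or the letters CCAAT, which 37.4% of all windows held.

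Several members share a gene structure, which the choice of genes did not use. In the GENCODE annotation of GRCm38 the principal transcripts of Sox1, Sox2, Sox3, Sox4, Sox11 and Sox21 have 1 exon each. Those of Sox8 and Sox9 have 3 exons, that of Sox10 has 4 or 5 and that of Sox5 has 15. Sox11 lies on chromosome 12 from 27334264 to 27342574 (minus strand), Sox9 on chromosome 11 from 112782224 to 112787760 (plus strand) and Sox5 on chromosome 6 from 143828425 to 144781977 (minus strand). Sox2 (chromosome 3, 34650405 to 34652461, plus strand) lies within the span of the non-coding Sox2ot, without exon overlap. Strand-specific counting is not stated in the sources used here, so counts of Sox4, Sox5, Sox8 and Sox21 can include reads of models on the other strand over the same exons (Gm26735, Sox5os1, 2810468N07Rik and Gm4675).

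Per unit of transcript length, Sox11 was the most abundant of these genes by a wide margin, followed by Sox4, Sox2, Sox1 and Sox5 at similar levels, then Sox9, Sox8 and Sox21, with Sox10 and Sox3 close to 0. Sox11 reached 714 (NX), 727 (NY), 1017 (QT) and 333 TPM (RM) in knockout libraries and 804 (NX), 772 (NY), 979 (QT) and 389 TPM (RM) in control libraries. It ranked between 42nd and 118th among all genes of a library. RM was the lowest and QT the highest library in each genotype, so its level varied more between prefixes than between genotypes. Sox11 exceeded Sox4 in 8 of 8 libraries. Sox4, its SOXC relative, had 60.6 ± 30.3 TPM in knockout and 75.5 ± 23.6 TPM in control libraries, and exceeded Sox2 in 4 of 8. Sox2 exceeded Sox1 in 6 of 8 libraries and Sox1 exceeded Sox5 in 5 of 8, so the order of these 4 genes is not set apart from their spread. Sox5 exceeded Sox9 in 8 of 8 libraries, Sox9 exceeded Sox8 in 7, and Sox8 exceeded Sox21 in 8. Sox5 held place between Sox1 and Sox9 on average, but exceeded Sox1 in 3 of 4 knockout libraries and in 0 of 4 control libraries.

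**Figure D1:**
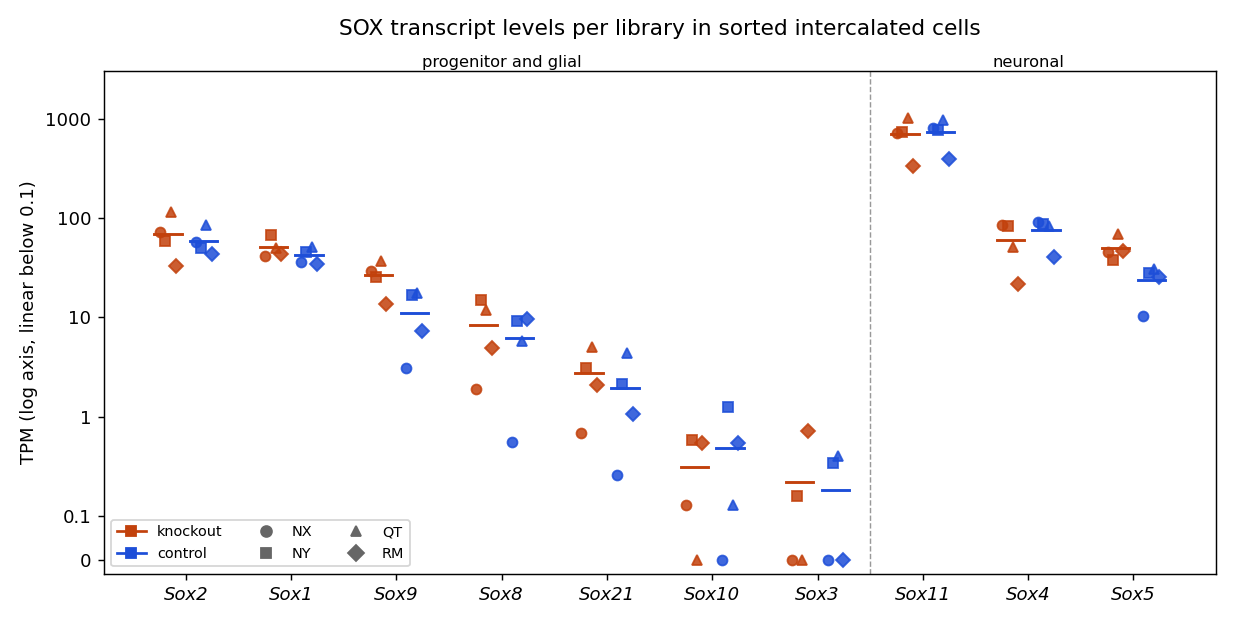
Deposited TPM (log axis, linear below 0.1) of the 10 SOX genes in each of the 4 knockout (left, orange) and 4 control (right, blue) libraries; symbols give the title prefix and bars the mean. Sox11 lies between 333 and 1017 TPM in all 8 libraries, every knockout library of Sox5 lies above every control library, and for Sox9 the knockout RM library lies below the control NY and QT libraries on this per-length scale.

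In the genotype comparison, 9 of the 10 members had enough counts to be tested (Sox3 had not) and 0 passed at an adjusted p under 0.05 in edgeR's quasi-likelihood test; DESeq2 and limma-voom also called 0. Over all 14157 genes tested edgeR called 5, or 0.0353% (0.00706% higher and 0.0283% lower in the knockout). At an unadjusted p under 0.05, 2 of the 9 members (Sox5 and Sox9, each higher in the knockout) passed, against 3.62% of all tested genes (1.7% higher and 1.91% lower in the knockout). These 2 were also the members whose knockout CPM did not overlap the control CPM, which held for 2.59% of tested genes. Fitted values were higher in the knockout for 6 of 9 members, against 49.4% of all tested genes. The median log2 fold change was 0.45 over the 6 tested progenitor and glial members (range -0.45 to 1.21), -0.04 over the 3 neuronal members (range -0.33 to 0.98) and -0.01 over all tested genes. The progenitor and glial values without control NX were 0.24 (Sox1), 0.16 (Sox2), 0.12 (Sox8), 0.88 (Sox9), -0.89 (Sox10) and 0.17 (Sox21). Those of the neuronal members were then -0.30 (Sox4), 0.73 (Sox5) and -0.07 (Sox11).

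**Figure D2:**
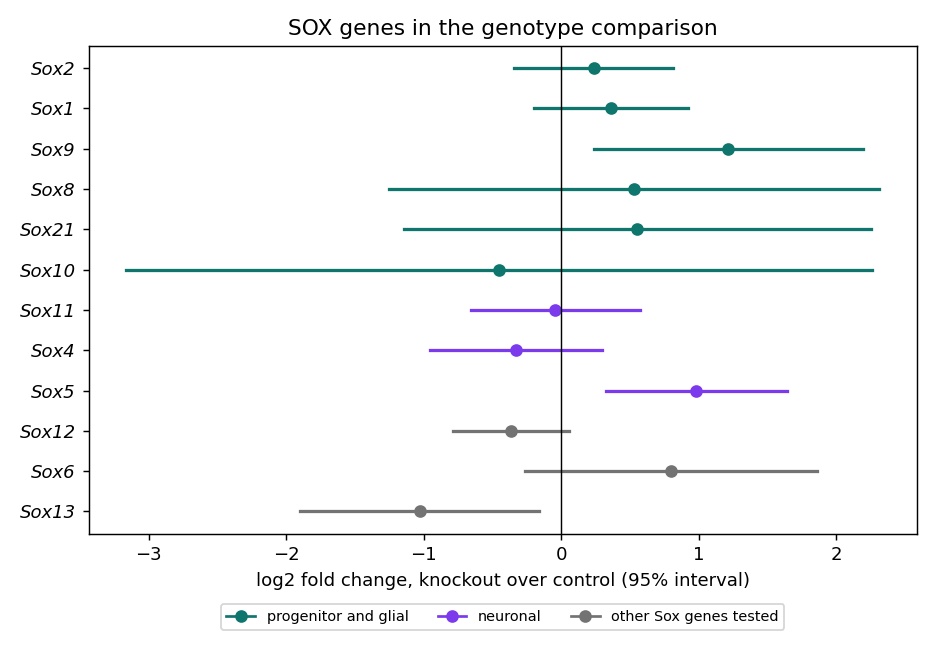
Log2 fold change of knockout over control with its 95% interval from edgeR's quasi-likelihood fit (n = 4 libraries per genotype) for the 9 tested members and the 3 other Sox genes tested. The intervals of Sox9 and Sox5 lie above 0 and that of Sox13 below it, none of them past adjustment over all genes, and those of Sox8, Sox21 and Sox10 are the widest of the 12.

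Among the SOXB1 factors, Sox2 and Sox1 were present in every library at levels that overlapped between genotypes, and Sox3 was near the limit of detection. Sox2, which maintains neural stem cells, had 70.6 (NX), 73.95 (NY), 132 (QT) and 64.2 CPM (RM) in knockout libraries and 60.8 (NX), 65.1 (NY), 98.8 (QT) and 64.3 CPM (RM) in control libraries. QT was the highest library in each genotype and the other 3 lay close together. Sox2 had a log2 fold change of 0.24 (SE 0.27, 95% interval -0.34 to 0.81, adjusted p = 1.00 in edgeR), and its sign depended on the knockout QT library: it was -0.05 without it. Sox1 had 69.9 (NX), 143 (NY), 101 (QT) and 146 CPM (RM) in knockout libraries and 65.0 (NX), 102 (NY), 102 (QT) and 88.9 CPM (RM) in control libraries. The knockout value was above the control value in 3 of 4 prefixes and just below it in QT. For Sox1 the fitted log2 fold change was 0.36 (SE 0.26, 95% interval -0.20 to 0.92, adjusted p = 1.00 in edgeR), and 0.24 without control NX, knockout NY or knockout RM. Expected counts of Sox1 were whole in 2 of 8 libraries (tolerance 0.005), so some of its fragments were shared with other genes. Exons of Sox1 overlap those of Gm25239 on the same strand.

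Sox3 had 0 (NX), 2 (NY), 0 (QT) and 7 (RM) expected counts in knockout libraries and 0 (NX), 5 (NY), 5 (QT) and 0 (RM) in control libraries. Most of these values are at or under the floor of 3 counts, which corresponded to between 0.204 and 0.499 CPM in knockout and between 0.186 and 0.545 CPM in control libraries. Sox21, the SOXB2 factor, had 1.09 (NX), 6.29 (NY), 9.44 (QT) and 6.49 CPM (RM) in knockout libraries and 0.434 (NX), 4.52 (NY), 8.19 (QT) and 2.54 CPM (RM) in control libraries. NX was lowest and QT highest in each genotype, and the knockout was above the control in 4 of 4 prefixes, but the genotypes overlapped. Sox21 had a log2 fold change of 0.55 (SE 0.78, 95% interval -1.14 to 2.25), against 0.17 without control NX, 0.22 without knockout QT, 0.91 without knockout NX and 1.22 without control QT.

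Sox9 was the progenitor and glial member whose CPM separated the genotypes. This SOXE factor, needed in radial glia and for the onset of gliogenesis, had 50.9 (NX), 57.0 (NY), 76.4 (QT) and 46.6 CPM (RM) in knockout libraries and 5.70 (NX), 38.6 (NY), 36.0 (QT) and 19.1 CPM (RM) in control libraries. In CPM every knockout library lay above every control library, with control NX the lowest; in TPM the genotypes overlapped, since knockout RM had 13.5 TPM against 16.8 TPM in control NY and 17.6 TPM in control QT. The means were 57.7 ± 13.2 CPM in knockout and 24.8 ± 15.4 CPM in control libraries (SD, n = 4 per genotype), a fitted 2.32-fold difference. The log2 fold change was 1.21 (SE 0.45, 95% interval 0.23 to 2.19), with an unadjusted p of 0.0191 and an adjusted p of 1.00 in edgeR. Without the control NX library the log2 fold change was 0.88. Sox9 made up between 13.7% and 20.1% of the summed TPM of the progenitor and glial members in knockout libraries and between 3.16% and 13.5% in control libraries.

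The other SOXE factors did not separate the genotypes. Sox8, which overlaps in function with its SOXE relatives in glia, had 2.31 (NX), 22.7 (NY), 17.05 (QT) and 11.3 CPM (RM) in knockout libraries and 0.310 (NX), 14.4 (NY), 8.34 (QT) and 14.2 CPM (RM) in control libraries. Both NX libraries were low, and in RM the control was the higher library. The fit for Sox8 gave 0.53 on the log2 scale (SE 0.82, 95% interval -1.25 to 2.31), against 0.12 without control NX, 0.14 without knockout NY, 0.80 without control RM, 0.84 without control NY and 0.89 without knockout NX. Sox10, a defining factor of oligodendrocyte precursors, had 2 (NX), 10 (NY), 0 (QT) and 7 (RM) expected counts in knockout libraries and 0 (NX), 25 (NY), 2.16 (QT) and 5 (RM) in control libraries. Its log2 fold change of -0.45 (SE 1.25) has a 95% interval from -3.16 to 2.26, which includes 0, and ran from -1.05 (without knockout RM) to -0.07 (without knockout QT) with 1 library left out; without control NX it was -0.89. The count differed widely between control NY and control NX, which had similar totals.

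Of the neuronal members, Sox5 separated the genotypes while the SOXC factors did not. Sox5 had 114 (NX), 107 (NY), 159.7 (QT) and 139.9 CPM (RM) in knockout libraries and 28.3 (NX), 76.7 (NY), 84.0 (QT) and 74.5 CPM (RM) in control libraries. Every knockout library lay above every control library, and the control NX library lay far below the other 3 control libraries. The means were 130.1 ± 24.3 CPM in knockout and 65.9 ± 25.4 CPM in control libraries (SD, n = 4 per genotype), a fitted 1.98-fold difference. The log2 fold change was 0.98 (SE 0.30, 95% interval 0.32 to 1.64), with an unadjusted p of 0.00675 and an adjusted p of 1.00 in edgeR; it was 0.73 without the control NX library. The mean transcript length that RSEM used for Sox5, which depends on the mix of isoforms it assigned, ran from 3631 to 5828 bases in knockout and from 4543 to 5992 bases in control libraries, so the ranges overlapped. Expected counts of Sox5 were whole in 4 of 8 libraries (tolerance 0.005).

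Sox11, which promotes neuronal maturation, had 2613 (NX), 3352 (NY), 4427 (QT) and 2428 CPM (RM) in knockout libraries and 3116 (NX), 3699 (NY), 4219 (QT) and 2171 CPM (RM) in control libraries. The knockout was the higher library in QT and RM and the lower in NX and NY. Sox11 had a log2 fold change of -0.04 (SE 0.28), with a 95% interval from -0.66 to 0.57, and it ran from -0.24 (without knockout QT) to 0.10 (without control QT) with 1 library left out, with -0.07 without control NX. Sox4 had 103 (NX), 129.6 (NY), 73.4 (QT) and 52.1 CPM (RM) in knockout libraries and 119 (NX), 139 (NY), 118 (QT) and 73.8 CPM (RM) in control libraries. The knockout library was the lower of the pair for all 4 prefixes, though the genotypes overlapped. Sox4 had a log2 fold change of -0.33 (SE 0.29, 95% interval -0.95 to 0.30, adjusted p = 1.00 in edgeR), against -0.13 without knockout RM, -0.20 without control NY and -0.56 without knockout NY.

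Set side by side, the progenitor and glial members stood higher relative to the neuronal members in the knockout within each prefix. Their summed TPM was 17.3% (NX), 19.998% (NY), 19.25% (QT) and 24.5% (RM) of the neuronal sum in knockout libraries and 10.8% (NX), 14.1% (NY), 15.2% (QT) and 21.2% (RM) in control libraries. The knockout value was above the control value in 4 of 4 prefixes, but the genotypes overlapped because the control RM library lay above the knockout NX, NY and QT libraries. The means were 20.3 ± 3.03% in knockout and 15.3 ± 4.37% in control libraries (SD, n = 4 per genotype). The progenitor and glial sum was 158 ± 50.2 TPM in knockout and 121 ± 32.5 TPM in control libraries, and the neuronal sum, of which Sox11 made up between 83.0% and 89.6%, was 808 ± 304 TPM in knockout and 835 ± 270 TPM in control libraries. Sox2 (33.5% to 59.0%) and Sox1 (23.0% to 44.3%) made up most of the progenitor and glial sum in each library. That sum was higher in the knockout in each prefix, but only slightly in RM (98.3 against 96.8 TPM). In RM the neuronal sum was 402 TPM in knockout and 455 TPM in control. No p is given for these sums because the genes in them are not replicates.

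**Figure D3:**
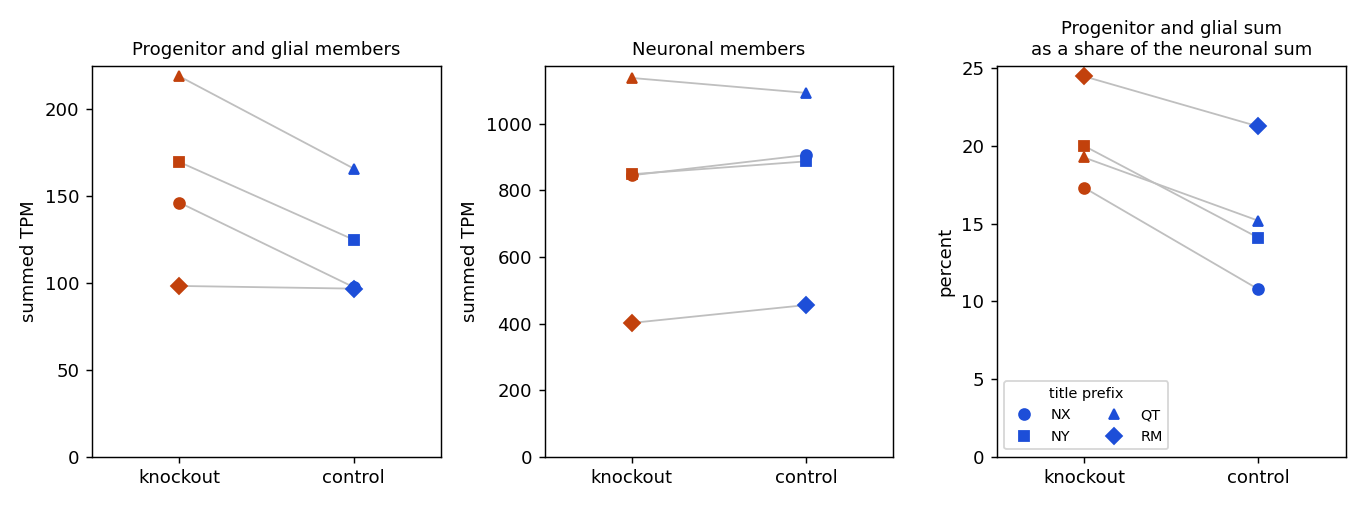
Summed TPM of the 7 progenitor and glial members (left), of the 3 neuronal members (middle) and the left sum as a percentage of the middle sum (right), with knockout left of control in each panel and lines joining libraries of the same title prefix. The percentage runs from 17.3% to 24.5% in knockout and from 10.8% to 21.2% in control libraries.

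Among the rest of the family, fitted values again ran in both directions. The tables hold 9 other Sox genes, of which 3 were tested and 0 called in edgeR (1 at an unadjusted p under 0.05), DESeq2 or limma-voom. Sox6, the SOXD relative that can pair with Sox5, had 103 (NX), 105 (NY), 170.5 (QT) and 129.6 CPM (RM) in knockout libraries and 13.7 (NX), 59.95 (NY), 143 (QT) and 74.7 CPM (RM) in control libraries. It was higher in 4 of 4 prefixes with overlap between the genotypes, and its log2 fold change of 0.80 (SE 0.49) was 0.45 without control NX and 1.37 without control QT. Sox12, a SOXC relative of Sox4 and Sox11, had 68.9 ± 8.37 CPM in knockout and 88.9 ± 13.5 CPM in control libraries (log2 fold change -0.37, SE 0.19). Sox13, another SOXD gene, had 6.38 ± 2.86 CPM in knockout and 13.1 ± 3.88 CPM in control libraries (-1.03, SE 0.40), the opposite sign to Sox5 and Sox6. Sox18, an endothelial factor, was not tested and stood at or below 0.457 CPM in knockout and 2.73 CPM in control libraries. Sox2ot had 330 ± 108 CPM in knockout and 373 ± 214 CPM in control libraries (log2 fold change -0.18, SE 0.34), against -0.29 without control NX, -0.42 without knockout RM and 0.31 without control RM.

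Lists of genes that work with SOX factors or mark the cells that use them were chosen with earlier results of these data known, and their members are given as counts. No gene of these lists except Tshz1 was called by edgeR, DESeq2 or limma-voom. Over all 14157 tested genes, 49.4% were fitted higher in the knockout and 3.62% had an unadjusted p under 0.05 in edgeR. Genes of a list are not replicates of one another. Among 8 SOX partners (POU class III and NFI factors and Chd7), 5 were fitted higher and 3 lower, 0 passed in edgeR (0 at an unadjusted p under 0.05), and the median log2 fold change was 0.07; Pou3f2 had 30.7 ± 15.6 CPM in knockout and 20.3 ± 11.99 CPM in control libraries. Of 10 neural progenitor and radial glia genes, 9 were tested, 2 fitted higher and 7 lower (median -0.20), with 0 called and 0 at an unadjusted p under 0.05 in edgeR. Hopx, the tested gene of that list with the smallest p, had 0.387 ± 0.361 CPM in knockout and 1.30 ± 0.784 CPM in control libraries. The astrocyte list had 5 of 7 members tested, with 2 fitted higher, 3 lower and 0 called (0 at an unadjusted p under 0.05; median -0.03).

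In the oligodendrocyte lineage list, 3 of 6 tested genes were fitted higher and 3 lower (median -0.04), with 0 called in edgeR and 1 at an unadjusted p under 0.05. Of 7 young neuron genes, 5 were fitted higher and 2 lower (median 0.15), with 0 called; Elavl4, an RNA-binding protein of neurons, had 103 ± 14.95 CPM in knockout and 62.4 ± 17.9 CPM in control libraries (0.72, SE 0.23), with no overlap. It was the member of that list with an unadjusted p under 0.05. The cell cycle list had 9 of 10 genes fitted higher (median 0.95), against 49.4% of all tested genes. Of these 10, 0 were called and 1 had an unadjusted p under 0.05 in edgeR (2 by DESeq2, 0 by limma-voom). That gene is Ccnb1 (cyclin B1, which drives mitotic entry, at 49.1 ± 29.3 CPM in knockout and 20.4 ± 9.13 CPM in control libraries).

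Marker sums shared some of their lowest or highest libraries with several members. For the progenitor and radial glia list the sum was 411 (NX), 1327 (NY), 897 (QT) and 1572 TPM (RM) in knockout libraries and 125 (NX), 1606 (NY), 913 (QT) and 1401 TPM (RM) in control libraries. Fabp7 alone held most of this sum on average, at 955 ± 493 TPM in knockout and 900 ± 629 TPM in control libraries. Sox8 and Sox21 were, like this sum, lowest in control NX and next lowest in knockout NX. Sox2, Sox9 and Sox21 were highest in knockout QT, whereas this sum was highest in control NY. The cell cycle sum was 171 (NX), 587 (NY), 652 (QT) and 339 TPM (RM) in knockout libraries and 144 (NX), 273 (NY), 387 (QT) and 213 TPM (RM) in control libraries, higher in the knockout in 4 of 4 prefixes. The pallial glutamatergic sum was 159.6 (NX), 189 (NY), 404 (QT) and 146 TPM (RM) in knockout libraries and 32.2 (NX), 220.0 (NY), 250.3 (QT) and 123 TPM (RM) in control libraries. It was higher in the knockout in every prefix but NY. Of that list 5 of 7 genes were fitted higher and 0 were called in edgeR (0 at an unadjusted p under 0.05; median 0.22), and Neurod6 had 74.5 ± 38.7 CPM in knockout and 43.0 ± 29.1 CPM in control libraries (log2 fold change 0.79, SE 0.55; 0.43 without control NX and 0.38 without knockout QT). Sox5 and the pallial sum each had their lowest value in control NX and their highest in knockout QT. The cell cycle sum and the CPM of Sox2, Sox9, Sox21 and Sox6 had the same extremes, so this likeness is not particular to the pallial list. The oligodendrocyte lineage sum was between 23.5 and 35.0 TPM in knockout and between 10.2 and 36.0 TPM in control libraries, and the astrocyte sum between 23.1 and 46.9 TPM in knockout and between 16.8 and 45.3 TPM in control libraries. The part of these other cells in the Sox5 and Sox9 values was not tested. Without both NX libraries the log2 fold changes were 0.79 for Sox5 and 0.94 for Sox9.

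**Figure D4:**
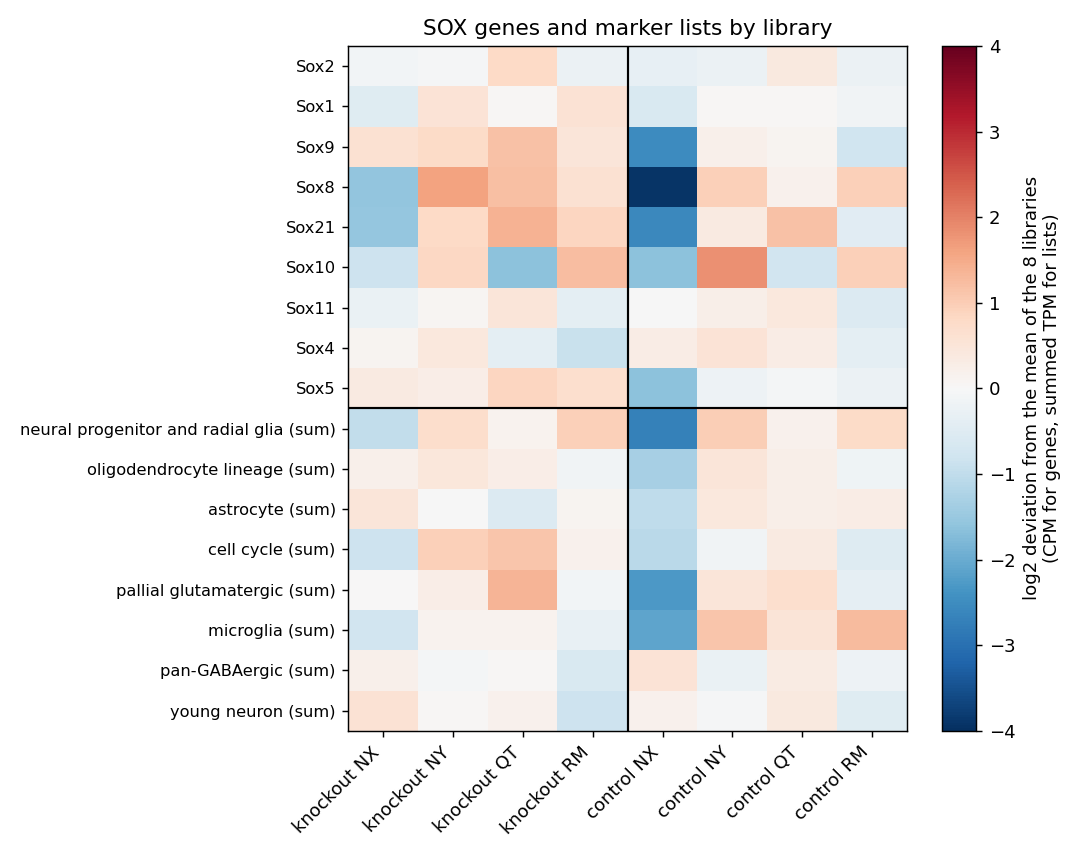
Deviation of each library from the mean of the 8 libraries (log2 scale; CPM for the 9 tested members, summed TPM for 8 marker lists), with the 4 knockout libraries left of the 4 control libraries. The control NX column is the lowest of the 8 for Sox2, Sox1, Sox9, Sox8, Sox21 and Sox5, and also for the neural progenitor, oligodendrocyte, astrocyte, cell cycle, pallial and microglia sums. It is the highest of the 8 for the pan-GABAergic sum.

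Of 8 intercalated cell genes, 7 were fitted lower (median -0.56), with 4 at an unadjusted p under 0.05 in edgeR. Tshz1, the gene whose alleles define the genotypes, is counted in each of these values. Foxp1, also among the 4, was fitted higher (log2 fold change 0.74, SE 0.24). Over all tested genes, 49.4% were fitted higher in the knockout and 3.62% had an unadjusted p under 0.05 in edgeR. Erbb4, a neuregulin receptor, had 74.4 ± 23.3 CPM in knockout and 129 ± 24.3 CPM in control libraries. In the pan-GABAergic list 6 of 7 were fitted lower and 0 called in edgeR (1 at an unadjusted p under 0.05; median -0.12), with Slc32a1, the vesicular GABA transporter, at 43.4 ± 6.58 CPM in knockout and 64.0 ± 10.6 CPM in control libraries. All 6 tested microglia genes were fitted lower (median -1.05), with 0 called in edgeR and 0 at an unadjusted p under 0.05 (1 by DESeq2), and the list summed to between 16.9 and 31.9 TPM in knockout and between 6.71 and 70.1 TPM in control libraries, with Ptprc at 0.536 ± 0.535 CPM in knockout and 3.02 ± 2.52 CPM in control libraries. Vascular genes summed to between 0.04 and 2.04 TPM in knockout and between 0 and 16.2 TPM in control libraries, with Cdh5 at 0.554 ± 0.653 CPM in knockout and 2.04 ± 2.61 CPM in control libraries.

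The genes whose log2 CPM followed Sox2 most closely over the 8 libraries, out of 9359 whose average log2 CPM reached 3, were Vezf1, Nedd4, Spg20 and Dennd5a. Their likeness (Pearson's r) was 0.97, 0.96, 0.95 and 0.95 (Spearman's rho 0.83, 0.71, 0.93 and 0.81), and without the 2 libraries farthest from the median of Sox2 it was 0.52, 0.28, 0.93 and 0.56, so for Vezf1, Nedd4 and Dennd5a it rested largely on those libraries. For Sox11 the closest were Wdr11, Prpsap2, 9530068E07Rik and AK018584, with r of 0.97, 0.96, 0.95 and 0.95 (rho 0.95, 0.95, 0.95 and 1), and 0.96, 0.92, 0.93 and 0.96 without the 2 farthest libraries. These values describe a ranking of all these genes over 8 libraries that share prefixes, and no p is attached to them.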

How the data were processed

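RNA-seq of 8 libraries (4 knockout, 4 control) was analysed. The submitters' processing notes name RSEM 1.2.22, Bowtie2, Trimmomatic 0.33 and build mm10, with no annotation release. The deposited files, per the file headers, hold RSEM expected counts, which need not be whole, and TPM, which is scaled to transcript length and library total and carries no depth. Sample files and matrices were compared in 16 columns; the largest difference was 0. Per the labels' protocols cDNA was amplified before library construction, and no molecular identifiers are named, so the floor of 3 counts covers counting error alone.

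For the tests, expected values were rounded to integers and fitted on all genes with edgeR 4.0.16 (R 4.3.3): filterByExpr kept 14157 of 32543 genes, then TMM and the quasi-likelihood test with genotype alone, Benjamini-Hochberg adjustment over all genes, and a call at an adjusted p under 0.05. SE is the log2 fold change over the root of F. CPM is TMM-scaled. The procedure was tested on simulated counts. Alternatives used limma 3.58.1, DESeq2 1.42.0, other factors, filters and libraries.

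Members and lists were chosen with earlier results of these data known. Named genes are the members, Tshz1, Sox2ot, up to 5 other Sox genes of highest TPM, up to 3 genes of each list with the smallest p, and the 4 most like Sox2 and Sox11. Fabp7 and Meis2 are named as the largest parts of their list sums. The values of 1 gene of the oligodendrocyte list are not reported here.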

Additional observations from a re-analysis of the deposited data

Results flagged for a closer look

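In 4 of the 20 groups of 4 libraries screened, 1 library lay far from the other 3. Chance alone gives about 1 in 20 for independent, normally distributed values. These CPM values need be neither, so no excess over chance is read from the screen. Sox2 was high in both QT libraries, at 132 CPM in knockout QT and 98.8 CPM in control QT. Sox3 had 1.16 CPM in knockout RM, which is 7 expected counts. Sox5 was low in control NX at 28.3 CPM.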

How the results depend on the processing

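No member was called in any of the 23 alternatives (1 to 3 members at an unadjusted p under 0.05), and Sox1, Sox4, Sox5 and Sox9 kept their sign in 23 of 23; Sox5 ran from 0.62 to 1.15 and Sox9 from 0.72 to 1.56 on the log2 scale. The number of genes called over all genes, 5 with all libraries, was 9 without composition factors, 19 without the low-count filter, 39 by DESeq2, 2 by limma-voom, 10 with log2 of TPM plus 1 and 11 at an adjusted p under 0.1. A replicate block for the prefix gave 28 calls in edgeR, and the log2 fold change was 1.07 for Sox5 (adjusted p = 0.132) 1.48 for Sox9 (adjusted p = 0.199), 1.14 for Sox6 (adjusted p = 0.401) and -0.37 for Sox4 (unadjusted p 0.0474, adjusted p = 0.689 in edgeR). Same-prefix deviations correlated across genes by 0.385 (NX), 0.303 (NY), 0.0658 (QT) and 0.4496 (RM), against -0.352 to 0.0753 between different prefixes. Deviations were taken from the mean of each genotype, so positive same-prefix values push the different-prefix values down. The different-prefix range is therefore not an independent baseline. QT had the lowest same-prefix value, and knockout QT correlated slightly more with control RM (0.072). The other same-prefix values hint at a pairing that the labels do not state. Because the labels do not explain the prefix, the block was kept as an alternative. Leaving out 1 library gave 0 to 5 calls (328 to 905 genes at an unadjusted p under 0.05): 0 without knockout NY or QT or control NX, QT or RM, 1 without knockout RM. In choices made after the data were seen, edgeR called 3 genes without both NX libraries and 0 without both NY, both QT or both RM libraries or without control NX and knockout QT (430, 262, 470 and 353 genes at an unadjusted p under 0.05).

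Signs turned for Sox2 (-0.13 without control NX and knockout QT; -0.054 to 0.43 with 1 library left out), Sox8 (-0.022) and Sox21 (-0.17) without the same 2 libraries, Sox10 (0.29 by limma-voom), Sox11 (0.021 without both NX libraries; -0.24 to 0.10 with 1 left out) and Sox2ot (0.067 without both RM libraries; -0.42 to 0.31 with 1 left out). The progenitor and glial sum as a percentage of the neuronal sum differed by 4.94 points (knockout minus control), 3.42 to 6.91 with 1 library left out, 5.97 without Sox5 and 2.34 in CPM (8.29% in knockout, 5.94% in control). Without Sox2 and Sox11, the members of highest TPM, the difference was 18.5 points because the neuronal sum is then much smaller (82.4% in knockout, 63.9% in control). The cause of the other shifts was not tested. The adjusted p of Tshz1 ran from 2.18e-09 to 0.618 over the 23. Sox3, with 0 to 7 counts a library, is limited by depth.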
